A study of Mus with 8 samples.

Results

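Guanylate-binding proteins (GBPs) and immunity-related GTPases (IRGs) are the large GTPases that mouse cells make after exposure to interferon-gamma, and 10 of their genes were followed here through 8 whole tumours: Gbp2, Gbp3, Gbp5, Gbp6, Gbp7, Irgm1, Irgm2, Igtp, Iigp1 and Ifi47. The genes were chosen by family, and their array probes were found by matching the transcript identifier of each probe to the RefSeq transcripts of the gene. All 10 were among the 31282 genes tested, and 12 probes measured them, 3 of these for Irgm1. The tumours had formed under the skin of mice given MC38, a colon cancer line of mouse origin, and were taken 25 to 30 days later. The Ext1S100a4Cre hosts (4 tumours) were B6 mice with both copies of Ext1 floxed and a Cre driven by S100a4, and the WT hosts (4 tumours) were wild-type B6 mice. The floxed Ext1 is given by the titles and protocols of the samples, while their source field names the S100a4Cre alone. The Cre acts in host cells that use the S100a4 promoter, which include fibroblasts and some leukocytes, so the MC38 cells kept their own Ext1 in both groups. Every tumour therefore mixed MC38 cells, which are 1 cell line, with host cells, and the labels give no age or sex of the hosts. Ext1 is a subunit of the polymerase that builds heparan sulfate chains, and the question of the study was what losing these chains in the stroma of the host does to a tumour.

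Interferon-gamma is secreted by T cells and NK cells, binds a receptor of 2 chains and, through the kinases Jak1 and Jak2, leads to induction of the transcription factor Irf1. GBPs and IRGs are among the most strongly induced targets of this route in macrophages, fibroblasts, epithelial cells and tumour cells alike. The proteins coat the membranes of vacuoles and bacteria inside the cell, open them, and help to start inflammasome signalling, while a regulatory subgroup of IRGs keeps the others off the cell's own membranes. Type I interferons induce several of the same genes.

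Levels are log2 intensities of 1-colour arrays minus the 75th percentile of the array, so a difference of 1 is a doubling, and levels of different probes are not on a common scale. All 8 arrays shared 1 slide, whose 2 rows each carried 2 tumours from either host, and 65.65% to 71.09% of the probes were well above background. The 2 lowest shares were those of Ext1S100a4Cre host tumours 1 (65.65%) and 4 (65.96%). Their 75th percentiles before scaling, intensities of 855 and 847, were also the 2 lowest. Ext1 itself was measured at -0.62, -0.27, -0.54 and -0.42 in Ext1S100a4Cre host tumours 1 to 4, against -0.55, -0.28, 0.24 and -0.14 in WT host tumours 1 to 4, and the ranges overlapped. In tumours that mix MC38 and host cells, with a probe whose position relative to the floxed part is not known, this level does not test the deletion. Transcripts of 4 Y-linked genes, each centred on its mean over the 8 tumours, averaged -3.43 and -3.29 in Ext1S100a4Cre host tumours 1 and 4, and 0.42 to 2.44 in the other tumours. Each of the 4 was well above background in 2 of the 4 Ext1S100a4Cre host arrays and 4 of the 4 WT host arrays. Xist did not pass the background filter, and whether the sex of the hosts differed between the groups was not tested. The differences of the 10 genes and of the gene lists are therefore also given without tumours 1 and 4 of those hosts.

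All 10 GTPase genes had a lower mean in tumours of Ext1S100a4Cre hosts than of WT hosts. For all 10 the size of the difference was below the SD of the Ext1S100a4Cre host tumours. It was above the SD of the WT host tumours for Gbp6, Gbp7 and Iigp1, and below it for the other genes. The log2 differences, Ext1S100a4Cre host minus WT host, ran over -1.32 for Gbp6 to -0.67 for Gbp3, with a median of -0.91, which is 1.875-fold lower. The median over all 31282 genes was 0.05, and 41.9% of all genes had a lower mean. By limma with Benjamini-Hochberg adjustment over all genes, 0 of the 10 passed an adjusted p of 0.05, and their adjusted p lay between 0.748 and 0.823. Over the whole array 0 genes passed it (0%), and 2050 genes (6.55%) had an unadjusted p under 0.05, of which 2.16% of all genes were lower and 4.39% higher in Ext1S100a4Cre hosts. None of the 10 had an unadjusted p under 0.05 (0 of 10). Gbp2, Gbp5, Gbp6, Gbp7 and Iigp1 had a mean at least 1 log2 unit lower, as did 3.61% of all genes. Exact two-sided permutation tests over the 70 assignments of the tumours gave p of 0.286 to 0.543 for the 10 genes, where the smallest p that 4 tumours a group allow is 0.0286. Between 8.26% and 20.6% of the variance of each gene over the 8 tumours lay between the hosts. The groups overlapped for all 10 genes, while they did not overlap for 1419 genes of the array (4.54%). In a whole tumour, fewer cells of a responding type and less RNA per cell cannot be told apart.

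**Figure D1:**
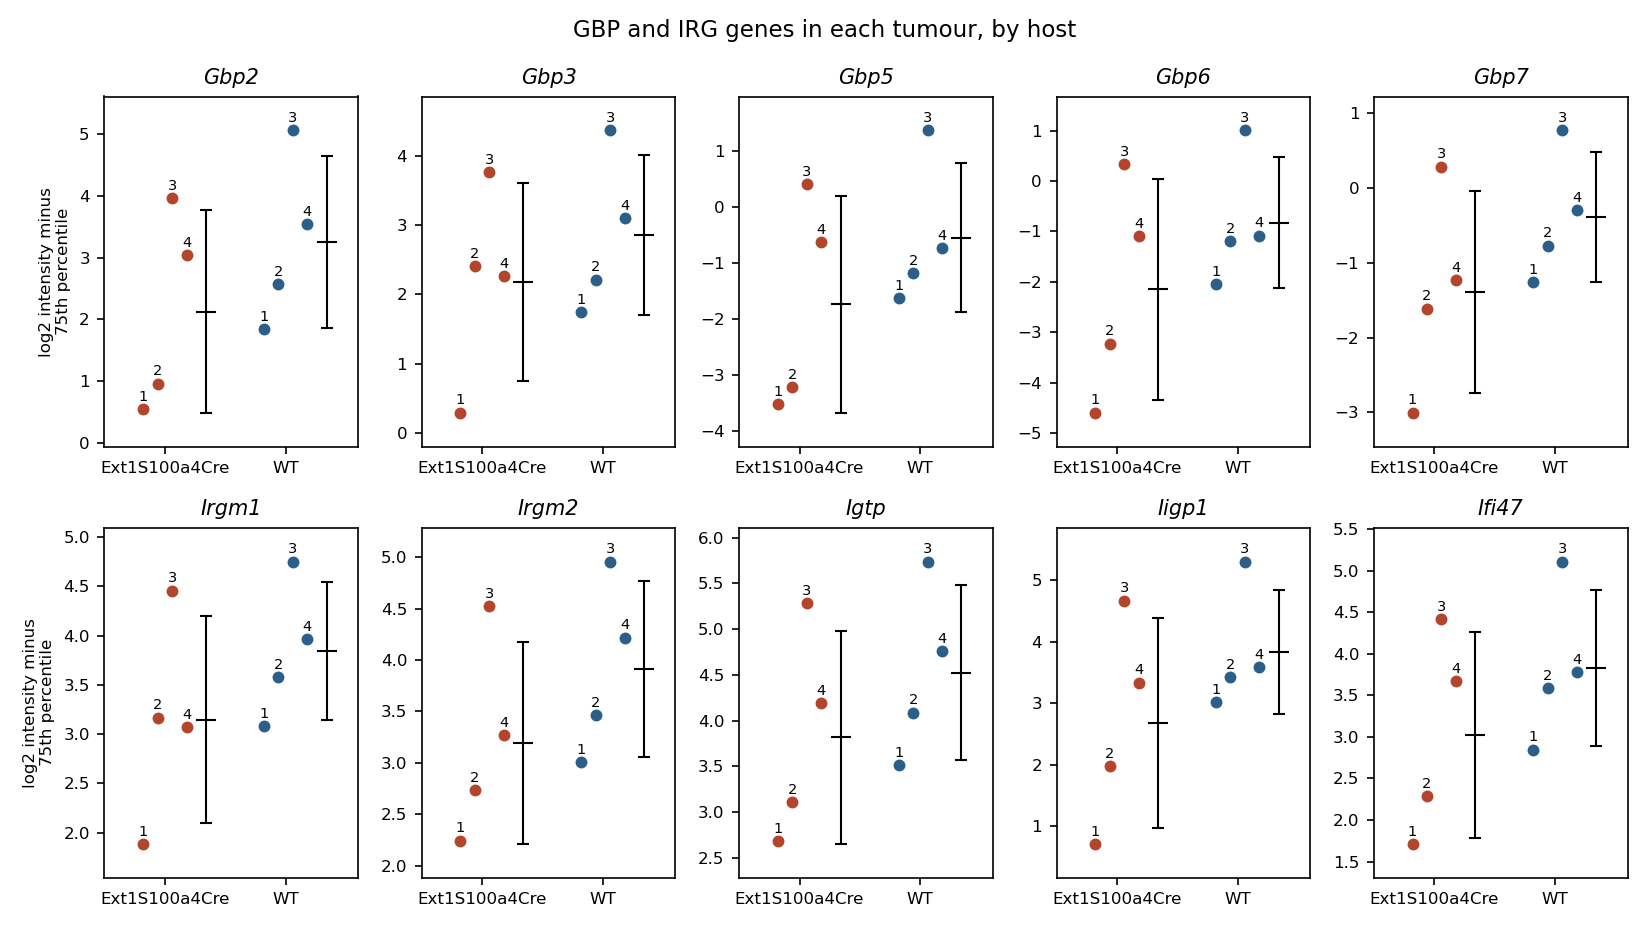
Log2 intensity minus the 75th percentile of the array (vertical axes, each with its own range) for the 10 GTPase genes in each tumour, Ext1S100a4Cre hosts left and WT hosts right. Points carry the number of the tumour, and the black mark and bar give the mean and SD of 4 tumours. Tumour 1 of the Ext1S100a4Cre hosts is the lowest point and tumour 3 of the WT hosts the highest in all 10 panels.

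Of the GBPs, the proteins that bind directly to bacteria and vacuoles, 4 are coded by 1 cluster on chromosome 3. Gbp2, which takes part in lysing vacuoles and feeding the Aim2 inflammasome, stood at 0.55, 0.96, 3.96 and 3.04 in Ext1S100a4Cre host tumours 1 to 4, against 1.84, 2.57, 5.06 and 3.54 in WT host tumours 1 to 4. Tumours 1 and 2 of the Ext1S100a4Cre hosts lay below every WT host tumour, whereas tumour 3 lay above 3 of the 4. The means were 2.13 ± 1.64 in Ext1S100a4Cre hosts and 3.25 ± 1.39 in WT hosts (SD, n = 4 each), and the difference was -1.13 with a 95% interval of -3.27 to 1.01. Gbp5, which promotes assembly of the Nlrp3 inflammasome, stood at -3.52, -3.23, 0.42 and -0.63 in Ext1S100a4Cre host tumours 1 to 4 and at -1.63, -1.18, 1.37 and -0.74 in WT host tumours 1 to 4. Again the first pair of Ext1S100a4Cre host tumours lay below all WT host tumours, and the other pair lay among them. The difference of Gbp5 was -1.19 with an interval of -3.53 to 1.14.

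Gbp7, which has been tied to assembly of the phagocyte oxidase and to autophagy, stood at -3.01, -1.61, 0.28 and -1.23 in the 4 Ext1S100a4Cre host tumours and at -1.26, -0.77, 0.77 and -0.29 in the 4 WT host tumours. Its means were -1.39 ± 1.35 in Ext1S100a4Cre hosts and -0.39 ± 0.87 in WT hosts (SD, n = 4 each), a difference of -1.002 with an interval of -2.61 to 0.61. It had the lowest limma p of the 10 genes, 0.189 before and 0.748 after adjustment. Gbp3, a further gene of the chromosome 3 cluster, stood at 0.29, 2.40, 3.76 and 2.26 in Ext1S100a4Cre hosts and at 1.74, 2.21, 4.36 and 3.096 in WT hosts. Only tumour 1 of the Ext1S100a4Cre hosts lay below the WT range for Gbp3, and tumour 2 lay inside it. The difference of Gbp3 was -0.67 with an interval of -2.51 to 1.16. Gbp6 lies in the second GBP cluster, on chromosome 5, and takes part in the control of bacteria inside macrophages. It stood at -4.60, -3.23, 0.33 and -1.10 in Ext1S100a4Cre host tumours and at -2.05, -1.19, 1.00 and -1.08 in WT host tumours. These values spanned 48.7-fold between the lowest and the highest tumour, the widest span of the 10 genes. Its means were -2.15 ± 2.19 in Ext1S100a4Cre hosts and -0.83 ± 1.30 in WT hosts (SD, n = 4 each), and the interval of the difference was -3.85 to 1.21.

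The regulatory IRGs, Irgm1, Irgm2 and Igtp, sit on the cell's own membranes and hold the effector IRGs in their inactive state. Irgm1 stood at 1.88, 3.17, 4.46 and 3.07 in Ext1S100a4Cre host tumours 1 to 4 and at 3.08, 3.58, 4.75 and 3.97 in WT host tumours 1 to 4. Here tumours 1 and 4 of the Ext1S100a4Cre hosts were the ones below the WT range, tumour 4 by a margin of under 0.1. The 3 probes of Irgm1 each gave a difference of -0.70. Irgm2 stood at 2.24, 2.74, 4.52 and 3.27 in Ext1S100a4Cre hosts and at 3.01, 3.46, 4.96 and 4.22 in WT hosts. Igtp, found on the endoplasmic reticulum and lipid droplets, stood at 2.68, 3.11, 5.28 and 4.19 in Ext1S100a4Cre hosts and at 3.52, 4.09, 5.74 and 4.76 in WT hosts. For both genes tumours 1 and 2 of the Ext1S100a4Cre hosts were the lowest of the 8, and tumours 3 and 4 lay inside the WT range. The differences were -0.72 for Irgm2, with an interval of -2.03 to 0.59, and -0.71 for Igtp, with an interval of -2.22 to 0.80.

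The effector IRGs, Iigp1 and Ifi47, load onto the vacuoles of parasites and break them. Iigp1 stood at 0.71, 1.98, 4.67 and 3.33 in Ext1S100a4Cre host tumours 1 to 4, against 3.01, 3.43, 5.30 and 3.59 in WT host tumours 1 to 4. Its lowest WT host tumour exceeded the lowest Ext1S100a4Cre host tumour by more than 2 log2 units, yet tumour 3 of the Ext1S100a4Cre hosts was second of all 8. The means of Iigp1 were 2.67 ± 1.71 in Ext1S100a4Cre hosts and 3.83 ± 1.01 in WT hosts (SD, n = 4 each), a difference of -1.16 with an interval of -3.14 to 0.82. Ifi47 stood at 1.71, 2.29, 4.41 and 3.67 in Ext1S100a4Cre hosts and at 2.85, 3.59, 5.11 and 3.78 in WT hosts, a difference of -0.81 with an interval of -2.37 to 0.75. The pattern over the tumours was that of Iigp1, with 2 Ext1S100a4Cre host tumours below the WT range and 2 inside it. The 5 GBPs had a median difference of -1.13 and the 5 IRGs of -0.72. These medians were -0.50 and -0.38 without Ext1S100a4Cre host tumour 1, and -0.56 and -0.39 without WT host tumour 3. Without Ext1S100a4Cre host tumours 1 and 4 they were -0.62 and -0.33.

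The tumours kept nearly the same order for every GTPase gene. Tumour 1 of the Ext1S100a4Cre hosts was lowest and tumour 3 of the WT hosts highest for all 10, and tumour 3 of the Ext1S100a4Cre hosts was second for all 10. Tumour 2 of the Ext1S100a4Cre hosts was second lowest for 8, the exceptions being Gbp3 and Irgm1. With each gene centred on its mean over the 8 tumours, the 10 genes averaged -2.06, -1.10, 1.25 and 0.03 in Ext1S100a4Cre host tumours 1 to 4 and -0.55, 0.02, 1.88 and 0.53 in WT host tumours 1 to 4. The spread inside each host group was thus wider than the step between the groups. In each host, tumours 3 and 4, on the second slide row, averaged above tumours 1 and 2, on the first. An effect of the row and a difference between the tumours cannot be told apart here. Over the 8 tumours the 45 pairs of genes had Pearson correlations of 0.862 to 0.996, median 0.962, and over the 6 tumours left without the lowest and the highest the median was 0.920 and the lowest 0.604, for Gbp3 with Gbp5. These points share arrays and RNA preparations, so the correlations are given as a description. The ratio of the highest to the lowest tumour ran over 13.7 to 48.7 for the 5 GBPs, and over 6.55 to 10.6 for the IRGs other than Iigp1, which stood at 24.1. The families therefore overlapped in their span, and no test of it was made.

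The size of the host difference varied with the tumours included. The mean difference of the 10 genes was -0.94 over all tumours, -0.41 without Ext1S100a4Cre host tumour 1, -0.47 without WT host tumour 3 and -1.52 without Ext1S100a4Cre host tumour 3. All 10 genes had a lower mean in each of these fits. The last of them could not have changed this, as Ext1S100a4Cre host tumour 3 was the highest of its group for all 10. Without Ext1S100a4Cre host tumours 1 and 4, the pair low in Y-linked transcripts, it was -0.40, and 9 genes had a lower mean, with Gbp3 at 0.23. In the first slide row, which held tumours 1 and 2 of each host, the mean difference was -1.32, and in the second, with tumours 3 and 4, it was -0.56. All 10 genes had a lower mean in Ext1S100a4Cre hosts within either row. The test of whether this host difference changed between rows gave limma adjusted p of 0.997 to 0.999. The levels themselves were not tested between rows.

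**Figure D2:**
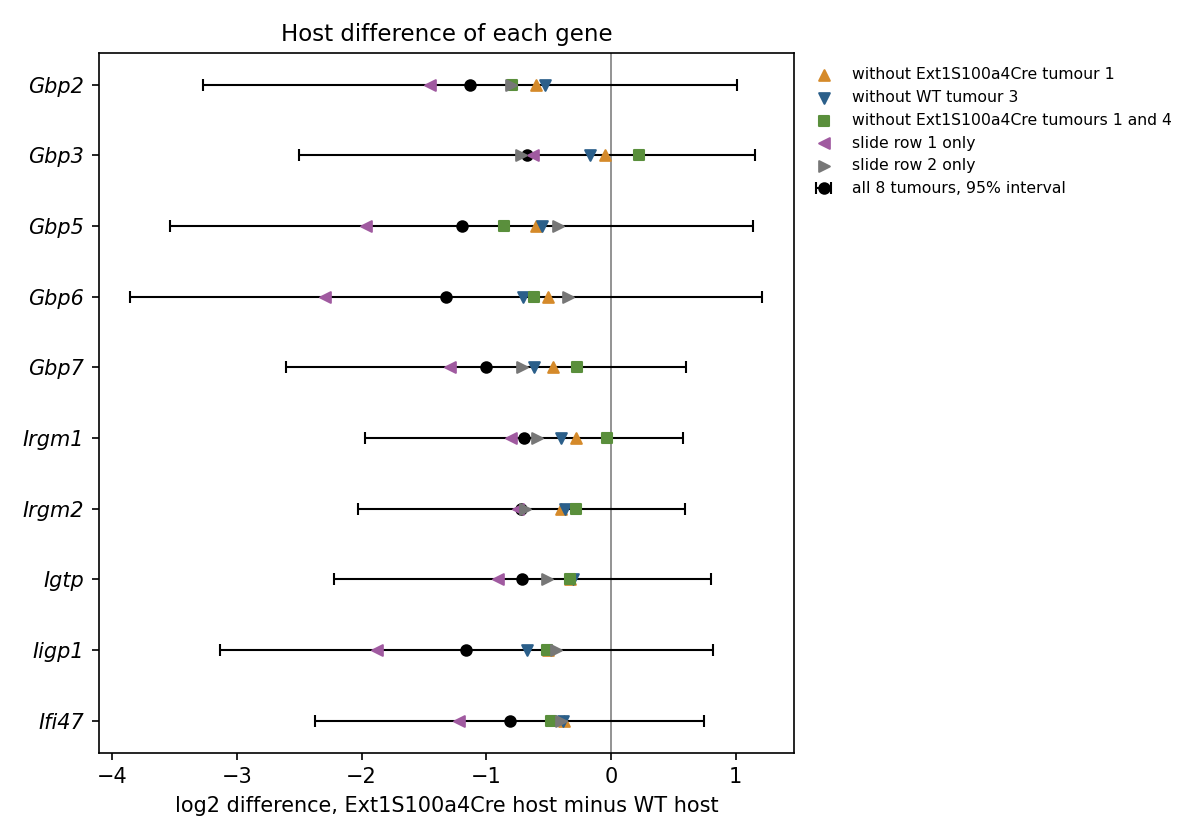
Log2 difference, Ext1S100a4Cre host minus WT host (horizontal axis), for each GTPase gene. Black points and bars are the estimates and 95% intervals from all 8 tumours, and coloured marks are the differences without single tumours, without tumours 1 and 4 of the Ext1S100a4Cre hosts, or within 1 slide row. All 10 intervals hold 0, and the coloured marks lie below 0 except that of Gbp3 without tumours 1 and 4, at 0.23. The setting without both Ext1S100a4Cre host tumour 1 and WT host tumour 3 is not drawn. There 7 of the 10 differences lay above 0, with the lowest and the highest tumour removed.

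Tumour 1 of the Ext1S100a4Cre hosts was lowest for 4 of 5 further GBP genes and for 5 of 7 other IRG and related genes, and WT host tumour 3 was highest for 5 of 5 and 5 of 7. All 5 further GBP genes tested had a lower mean in Ext1S100a4Cre hosts, with a median difference of -1.23 and 0 called by limma. That median was -0.57 without Ext1S100a4Cre host tumour 1, -0.68 without WT host tumour 3 and -1.97 without Ext1S100a4Cre host tumour 3. All 5 had a lower mean in each case, which the last removal could not have changed. The median was -0.72 without Ext1S100a4Cre host tumours 1 and 4, and -0.43 with normexp background correction. Under that correction Gbp2b differed by -0.43, against -2.36 in the main setting, Gbp8 by -0.93 and Gbp9 by -0.26. Gbp4, Gbp8, Gbp9 and Gbp10 neighbour Gbp6 in the chromosome 5 cluster in assembly GRCm38.p6, and Gbp2b lies between Gbp3 and Gbp2 in that of chromosome 3. Gbp8 stood at -6.67, -4.93, -1.34 and -3.05 in Ext1S100a4Cre host tumours 1 to 4, against -3.48, -2.39, -0.27 and -2.22 in WT host tumours 1 to 4. Gbp2b stood at -8.69, -9.05, -1.17 and -4.59 in Ext1S100a4Cre hosts and at -5.52, -3.26, -1.06 and -4.22 in WT hosts. For Gbp2b only 2 of the 4 Ext1S100a4Cre host arrays, and for Gbp8 and Gbp9 only 3, were well above background, against 4 of 4 WT host arrays for each, so their lowest levels are near the limit of detection. Gbp10 had the smallest difference of the 5, -0.40.

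Among the 7 other IRG and related genes tested, 6 had a lower mean in Ext1S100a4Cre hosts, the median difference was -0.93, and 0 were called. The median was -0.46 without Ext1S100a4Cre host tumour 1, -0.50 without WT host tumour 3, -1.57 without Ext1S100a4Cre host tumour 3 and -0.27 without Ext1S100a4Cre host tumours 1 and 4. Tgtp2, an effector IRG gene next to Ifi47, stood at 2.35, 2.55, 5.70 and 4.52 in Ext1S100a4Cre hosts and at 3.78, 4.31, 6.01 and 4.75 in WT hosts. Gm12250, known as Irgb10, acts with GBPs to expose bacterial ligands to inflammasomes and lies next to Igtp. It stood at -2.62, -2.39, 1.21 and -0.23 in Ext1S100a4Cre hosts and at -1.20, -0.49, 2.23 and 0.37 in WT hosts. Both genes repeated the pattern of Igtp and Ifi47, with the first pair of Ext1S100a4Cre host tumours lowest. The very large GTPase Gvin1 differed by -1.24, Gm4951 by -1.36 and Gm5431 by -0.69. Irgq, which is not induced by interferon, differed by 0.14, and this sign turned to -0.11 in the unscaled deposited matrix. F830016B08Rik, a further gene of the IRG family, differed by -0.11 and varied by less than 0.4 over the 8 tumours. Near-identical copies such as Tgtp1 and Tgtp2, or Gbp6 and Gbp10, may share signal, and how far each probe also binds a relative was not tested.

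**Figure D3:**
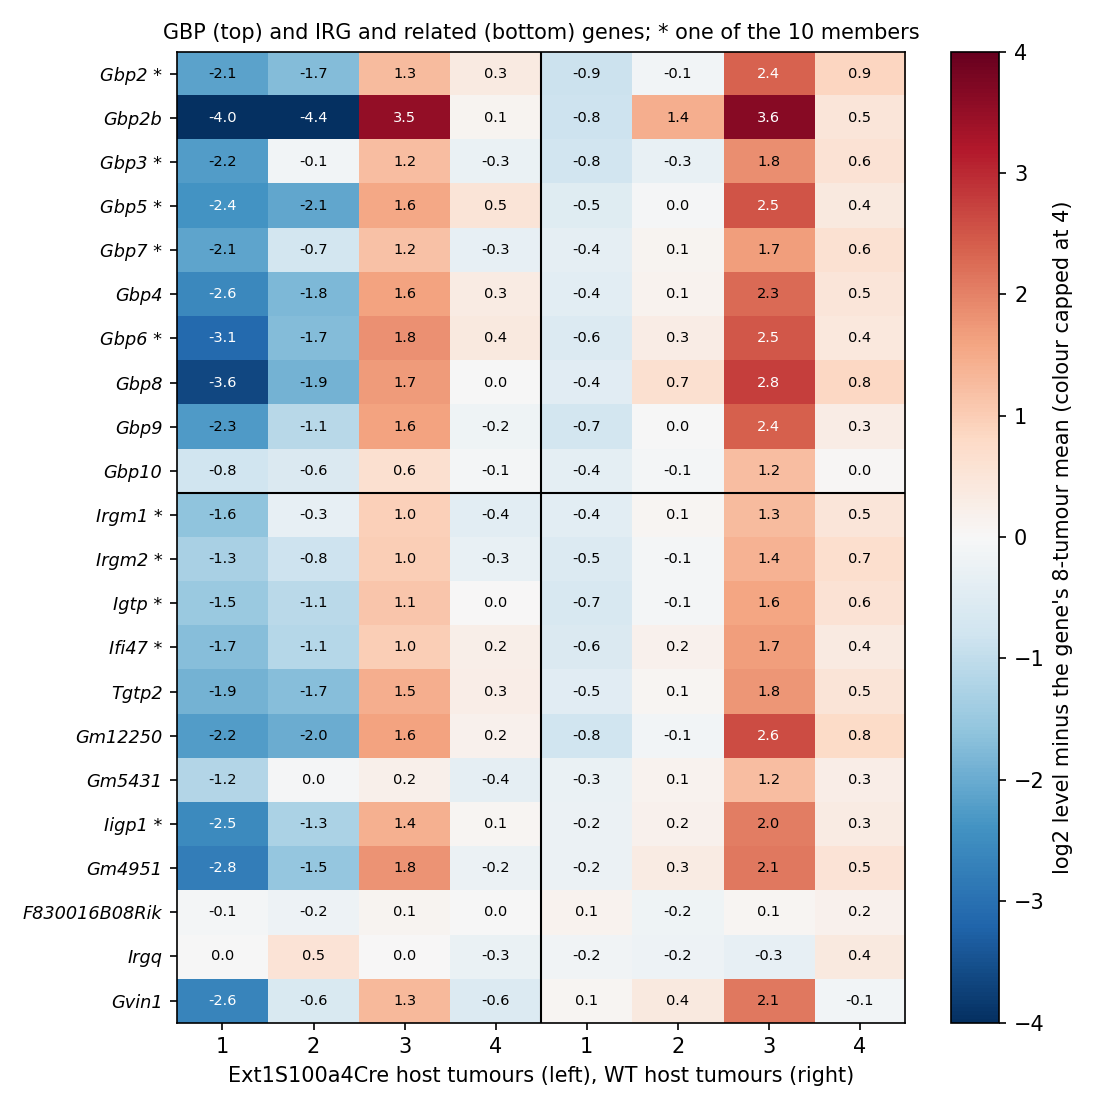
Log2 level of GBP, IRG and related genes (rows) in each tumour (columns, Ext1S100a4Cre hosts left of the line and WT hosts right), each gene centred on its mean over 8 tumours, with the value written in the cell. Stars mark the 10 genes named at the start. Column 1 of the Ext1S100a4Cre hosts is blue and column 3 of the WT hosts red for nearly all rows, while F830016B08Rik and Irgq stay pale.

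Upstream of the GTPases, 15 of the 15 tested genes of interferon-gamma production and signalling had a lower mean in Ext1S100a4Cre hosts, with a median difference of -0.69 and 0 called by limma. That count was 13 without Ext1S100a4Cre host tumour 1 (median -0.31) and 11 without WT host tumour 3 (median -0.16). It was 12 without Ext1S100a4Cre host tumours 1 and 4 (median -0.14), and 14 with normexp background correction (median -0.36). Ifng, the ligand, stood at -5.17, -4.84, -1.36 and -2.17 in Ext1S100a4Cre host tumours 1 to 4 and at -2.88, -1.95, -0.54 and -2.60 in WT host tumours 1 to 4, a difference of -1.39. The ligand was thus lowest in the same pair of Ext1S100a4Cre host tumours as most of the GTPases, and highest in the same WT host tumour. Il18, a cytokine that drives Ifng production, differed by -1.16, the kinases Jak2 and Jak1 by -0.49 and -0.25, and the transcription factor Irf8 by -1.29. Irf1, which binds GBP and IRG promoters, stood at 1.77, 2.01, 4.399 and 3.36 in Ext1S100a4Cre hosts and at 3.00, 3.41, 5.27 and 3.68 in WT hosts.

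Of the 21 other interferon-gamma targets tested, 21 had a lower mean in Ext1S100a4Cre hosts, the median difference was -0.93, and 0 were called. The count stayed at 20 or above without any 1 tumour except Ext1S100a4Cre host tumour 2, where it was 19. The median was -0.60 without Ext1S100a4Cre host tumour 1, -0.53 without WT host tumour 3, and -0.40 without Ext1S100a4Cre host tumours 1 and 4. Ext1S100a4Cre host tumour 1 was lowest for 15 of 21 targets, tumour 2 second lowest for 7, and WT host tumour 3 highest for 20. Immunoproteasome and antigen presentation genes led the list by p, with Psmb8 at -1.27, Psmb9 at -1.06, the peptide transporter Tap1 at -0.93 and the class I light chain B2m at -0.81, each with a limma adjusted p of 0.747. The Fc receptor Fcgr1, induced by interferon-gamma in macrophages, differed by -1.42 with the same adjusted p. Among 16 partners of the GTPases, the autophagy and inflammasome proteins they work with, 8 had a lower and 8 a higher mean, and the median difference was -0.03. Without Ext1S100a4Cre host tumours 1 and 4 the median of the partners was -0.04, with 10 lower and 6 higher. The inflammasome genes Aim2 and Casp1 differed by -1.44 and -0.86. Aim2 was well above background in 3 of the 4 Ext1S100a4Cre host arrays and 4 of the 4 WT host arrays, and differed by -0.52 with normexp background correction. Atg7, Atg12 and Atg16l1, of the conjugation system that places IRGs on vacuoles, differed by 0.24, 0.24 and 0.19, and all 3 turned negative in the unscaled deposited matrix. Atg3 of the same system differed by -0.13.

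Type I interferon genes separated from the GTPases in tumour 2 of the Ext1S100a4Cre hosts. The 19 type I genes tested, centred as above, averaged -1.97, 0.79, 1.01 and -0.74 in Ext1S100a4Cre host tumours 1 to 4 and -0.58, -0.33, 1.39 and 0.43 in WT host tumours 1 to 4. In tumour 2 of the Ext1S100a4Cre hosts the GTPases were therefore 1.89 below the type I genes, while the gap in the other 7 tumours lay between -0.09 and 0.77. All 19 type I genes were higher in that tumour than in Ext1S100a4Cre host tumour 4, against 2 of the 10 GTPase genes, Gbp3 by 0.15 and Irgm1 by 0.10. Likewise 19 of 19 type I genes were higher there than in WT host tumour 1, against 2 of 10 GTPase genes. Ext1S100a4Cre host tumour 2 lay below all 4 WT host tumours for 8 of 10 GTPase genes and 16 of 21 other interferon-gamma targets. It did so for 6 of 15 interferon-gamma signalling genes and for 0 of 19 type I genes. Of the signalling genes 7 of 15, and of the other targets 7 of 21, were higher in it than in Ext1S100a4Cre host tumour 4. These counts describe 1 tumour, with no test.

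Correlation with the mean of the type I genes over the 8 tumours was highest for Gbp3 at 0.933, Irgm1 at 0.8996 and Gbp7 at 0.846, and lowest for Gbp2 at 0.677 and Gbp5 at 0.632. With Ext1S100a4Cre host tumour 2 left out, the 10 genes lay between 0.941 and 0.994. Between hosts, the type I genes had a lower mean in 19 of 19 cases with a median difference of -0.39, and 0 were called. That direction depended on the tumours included. Only 5 of 19 had a lower mean without Ext1S100a4Cre host tumour 1 (median 0.15), 1 of 19 without Ext1S100a4Cre host tumours 1 and 4 (median 0.65), and 14 of 19 without WT host tumour 3 (median -0.07). Their median was -0.77 without Ext1S100a4Cre host tumour 2, -0.72 without tumour 3 and -0.24 without tumour 4 of the same hosts, and -0.65 without WT host tumour 1. Ifit2, Bst2, Oas1a, Oas2 and Cmpk2, the type I genes with the smallest p, differed by -1.32, -0.57, -0.39, -0.66 and -0.70 over all tumours.

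**Figure D4:**
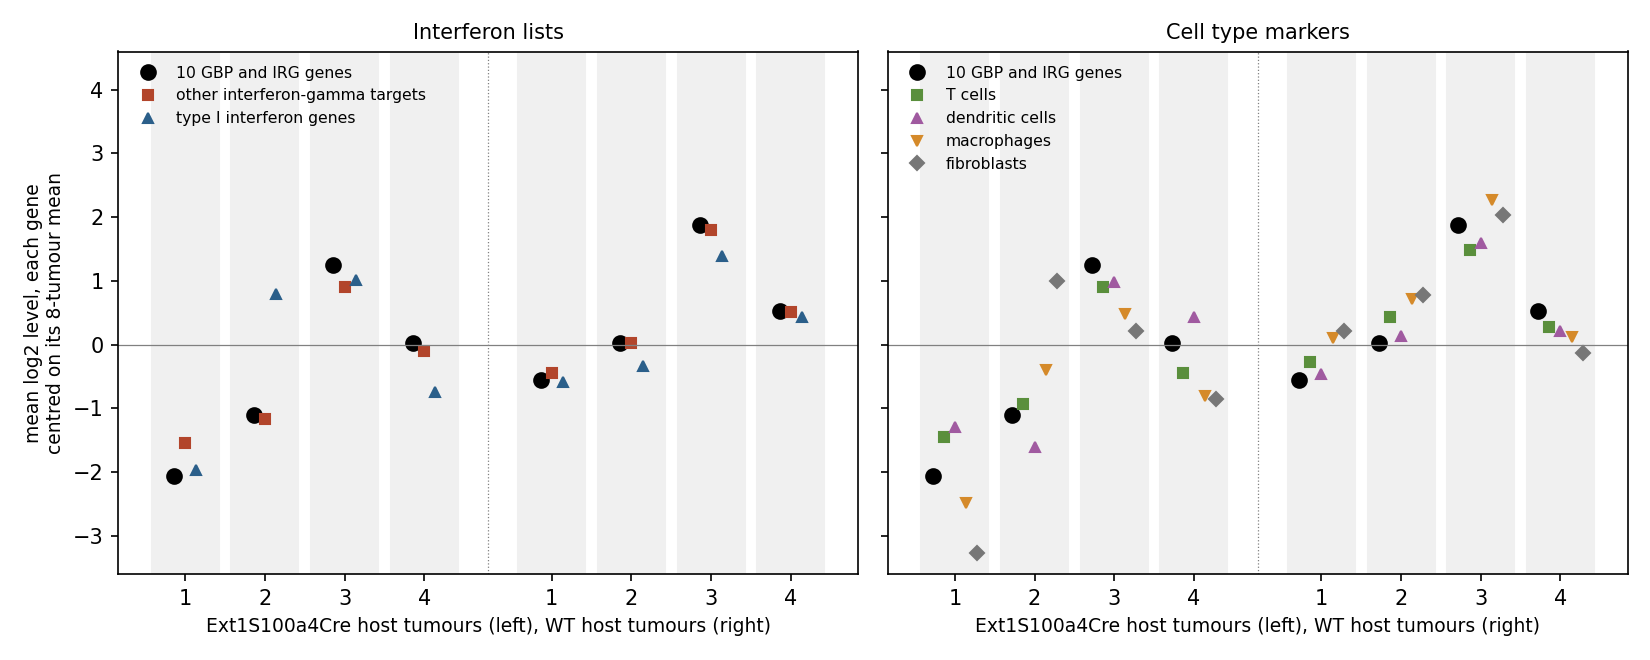
Mean log2 level of gene lists in each tumour, every gene centred on its mean over 8 tumours (vertical axis), with Ext1S100a4Cre host tumours left of the dotted line and WT host tumours right. The left panel sets the 10 GTPase genes beside other interferon-gamma targets and type I interferon genes, and the right panel beside markers of 4 cell types. In tumour 2 of the Ext1S100a4Cre hosts the type I genes sit at 0.79 and the GTPases at -1.10, with T cell markers at -0.93, dendritic cell markers at -1.60 and fibroblast markers at 1.00.

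Markers of the cells that make interferon-gamma, or respond to it, varied over the same tumours. The T cell markers (6 of 6 with a lower mean in Ext1S100a4Cre hosts, median difference -1.09) averaged -1.45 to 0.90 in Ext1S100a4Cre host tumours and -0.27 to 1.48 in WT host tumours, again centred. The dendritic cell markers (4 of 5 lower, median -0.53) ran over -1.60 to 0.99 in Ext1S100a4Cre hosts and -0.46 to 1.59 in WT hosts. Without WT host tumour 3 the median difference was -0.73 for T cell and -0.10 for dendritic cell markers, and without Ext1S100a4Cre host tumour 1 it was -0.71 and -0.33. The macrophage markers (8 of 8 lower, median -1.31) ran over -2.48 to 0.47 in Ext1S100a4Cre hosts and 0.10 to 2.28 in WT hosts, and their median difference was -0.73 without Ext1S100a4Cre host tumour 1 and -0.85 without WT host tumour 3. In all 3 lists tumour 3 of the WT hosts was highest, and tumours 1 and 2 of the Ext1S100a4Cre hosts were at or near the bottom for T cells and dendritic cells. The NK and cytotoxic markers were lowest in Ext1S100a4Cre host tumour 1, at -2.08, but stood at 0.30 in tumour 2 of those hosts, where the GTPases were low. Fibroblast markers likewise were lowest in Ext1S100a4Cre host tumour 1, at -3.27, and stood at 1.00 in tumour 2, and their median difference was -1.80 over all tumours, -0.27 without Ext1S100a4Cre host tumour 1 and 0.27 without tumours 1 and 4. Without tumours 1 and 4 the median was -0.47 for T cell, -0.73 for dendritic cell and -0.73 for macrophage markers. For NK and cytotoxic markers it was 0.16 (6 of 7 higher), against -0.61 (6 of 7 lower) over all tumours. In the same setting it was -1.41 for B cell and 3.89 for skeletal muscle markers. B cell markers (3 of 4 lower) lay at -1.22 to -0.22 in Ext1S100a4Cre hosts and 0.19 to 1.85 in WT hosts, with differences of -3.57 for Ms4a1, -1.50 for Cd79b and 0.08 for Cd79a among them. Ms4a1 was well above background in 0 of the 4 Ext1S100a4Cre host tumours and 4 of the 4 WT host tumours, and Cd79a in 3 of 4 of either host. Skeletal muscle markers ran the other way, at -0.90 to 3.02 in Ext1S100a4Cre hosts and -1.74 to -0.19 in WT hosts. The part of these cell types in the GTPase levels was not tested.

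The mean profile of the 10 GTPases over the tumours was compared with that of other named genes. Clone, model and accession names, such as Gm and Rik symbols, were left out. The IRG and related genes Gm12250, Gm4951, Gm5431 and F830016B08Rik could therefore not appear among the closest genes. Among 15694 named genes compared over the 8 tumours, the 8 with the highest Pearson correlation were Tnfsf10 (0.995), Batf2 (0.991), Gbp9 (0.991), Gbp4 (0.989), Gbp8 (0.985), Irf1 (0.984), Naaa (0.983) and Arhgap26 (0.982). Over the 6 tumours left without the lowest and the highest, these 8 correlations lay between 0.951 and 0.990. Tnfsf10 codes for the death ligand TRAIL, Batf2 for an interferon-inducible transcription factor that works with Irf1, Naaa for a lysosomal amidase and Arhgap26 for a GTPase-activating protein. Tnfsf10 differed between hosts by -1.16, Batf2 by -1.06, Naaa by -0.65 and Arhgap26 by -0.22, with limma adjusted p of 0.765, 0.771, 0.823 and 0.802. Ifng itself reached 0.943 over 8 tumours and 0.854 over 6. Ptprc, the leukocyte antigen CD45, chosen after its values were seen, reached 0.948 over 8 and 0.834 over 6. The T cell marker Cd3e reached 0.847 over 8 and 0.779 over 6, and the macrophage marker Adgre1 0.888 over 8 and 0.573 over 6. All of these points share arrays and RNA, and the values are given as a description.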

How the data were processed

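Per the labels' protocols, total RNA of whole tumours was extracted, and 0.5 µg was amplified, labelled with Cy3 and hybridised to 1-colour Agilent arrays. Per the file headers, the deposited intensities came from Agilent Feature Extraction 10.7.3.1 and are background-subtracted, while the submitters' processing notes name version 9.1. Other deposited columns flag spots well above background, saturated (0) or outlying. Here intensities were taken to log2 and the 75th percentile of all non-control spots was subtracted. Outlier spots were left out, and of 56605 probes the 39716 that exceeded background clearly (by their flag) in 4 or more tumours were kept. The probe with the highest mean stood for a gene. limma 3.58.1 in R 4.3.3 (lmFit, eBayes) gave two-sided tests, adjusted over 31282 genes, and was tested on simulated data. Labels do not state separate litters or experiments, so p-values measure the spread between these tumours. Deviations from the host mean of same-numbered tumours correlated at 0.493, -0.162, 0.591 and -0.245. These 4 values do not settle whether the numbers pair the tumours, and the labels state no pairing. Members and lists were chosen with earlier results of these data known. Values are printed for all members, for family genes, for up to 5 genes a list with the smallest p, and for the 8 genes most correlated with the members' mean. Those 8 were picked with clone, model and accession names left out. Headers name another mouse build than GRCm38.p6, which served only for names, chromosomes and neighbours.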

Additional observations from a re-analysis of the deposited data

Results flagged for a closer look

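In 4 of 190 groups of 4 tumours examined among the named genes, 1 tumour stood apart from the other 3 by a gap, relative to the group's range, above Dixon's 95% critical value, and chance flags about 1 in 20 groups. None of the 20 groups of the 10 GTPase genes did so, and their largest ratio was 0.749. Socs1, a feedback inhibitor of interferon signalling, was far higher in WT host tumour 3 than in the other WT host tumours (ratio 0.884), as was Ubd, an interferon-gamma-induced ubiquitin-like protein (ratio 0.889). This is the tumour in which all 10 GTPase genes were highest. Atg7 was high in Ext1S100a4Cre host tumour 2 (ratio 0.87), and Atg12 in WT host tumour 4 (ratio 0.85).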

How the results depend on the processing

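The test called 0 of the 10 GTPase genes under all 26 alternatives (adjusted p 0.347 to 1.00). Of 260 member differences, 252 kept their sign, but many of these could not have changed. Settings of the threshold, the background filter, single probes, the variance model and the blocks on replicate or slide row kept the main estimates. The median of the members stayed at -0.91 in each of them, so the count is not a measure of robustness. Leaving out 1 tumour, the mean difference lay between -1.516 and -0.411, and 0 to 2 genes of the array were called (2 without WT host tumour 3). Array weights and normexp background correction each called 1 gene, and array weights gave a mean difference of -0.36. Leaving out Ext1S100a4Cre host tumours 1 and 4 called 11 genes, and Gbp3 (0.23), Ifit2 (0.15), Oas1a (0.18), Oas2 (0.57) and Cmpk2 (0.77) turned positive. Ext1S100a4Cre host tumour 1 and WT host tumour 3 were the lowest and highest for these genes, so leaving out both had to move the differences upwards, and this setting supports nothing. It called 3 genes and left 3 members with a lower mean, and the mean difference of the members was 0.06. Gbp2 (0.00083), Gbp3 (0.46), Gbp5 (0.0386), Gbp6 (0.11), Irgm1 (0.0232), Igtp (0.0731) and Ifi47 (0.0515) then turned positive. So did Gbp9 (0.27), Gbp10 (0.14), Ifit2 (0.0189), Bst2 (0.15), Oas1a (0.17), Oas2 (0.38), Cmpk2 (0.36), Tnfsf10 (0.11), Batf2 (0.0436), Naaa (0.35), Arhgap26 (0.0765) and Casp1 (0.0341). The deposited matrix without scaling moved the median of all genes to -0.20, against 0.05, and turned Irgq (-0.11), Atg7 (-0.0109), Atg12 (-0.0135) and Atg16l1 (-0.0578) negative. Irgq also turned within slide row 2 (-0.16) and without Ext1S100a4Cre host tumour 2 (-0.0150), and its range over the fits that left out 1 tumour was -0.0150 to 0.299. The causes were not tested. With the replicate number as a block, 9 members and 3241 of all 31282 genes had an unadjusted limma p under 0.05. The lowest adjusted limma p of a member was then 0.347, and 0 genes were called. The labels state no pairing by number. The averages of the 10 genes did rank the numbers alike in both hosts, from low to high 1, 2, 4 and 3. Numbers 1 and 2 of both hosts lay on the first slide row, and 3 and 4 on the second. A pairing by number and an effect of the row therefore cannot be told apart in this ranking. Whether the numbers pair the tumours was not tested. Of the 26 alternatives, 4 had a member at an unadjusted limma p under 0.05. Besides the replicate block, these were the first slide row alone (6 members) and the fit without Ext1S100a4Cre host tumour 3 (4 members). The last was slide row as a block (1 member). Over the whole array, genes at an unadjusted p under 0.05 numbered 1465 to 3297 over the alternatives, against 2050. The test of a change in host difference between slide rows and the percentile taken over probes were chosen after seeing the data. With 4 arrays a group, the 95% intervals of the members, -3.85 to 1.21 at their widest, set the limit of what could be detected, and Gbp2b, Gbp8 and Gbp9 were near background in some tumours.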
